A study of Mus musculus with 21 samples.

Results

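The mouse mitochondrial chromosome encodes 37 genes, and all 37 were present in each of 3 deposited expression tables: 13 mRNAs, 2 rRNAs and 22 tRNAs. They were taken as every gene named with the prefix mt- that lies on the mitochondrial chromosome, out of 34280 genes in the table of thioacetamide livers and 54532 in each of the other tables. The study measured RNA by sequencing in 21 mouse libraries, 3 in each of 7 groups. By its title it concerns STING, hepatocyte pyroptosis and the NLRP3 inflammasome in liver fibrosis. One table holds primary wild-type hepatocytes given lipopolysaccharide (LPS, 1 µg/mL for 6 h) and nigericin, an ionophore (10 µM for 30 min), either alone or after 2 h with the NLRP3 inhibitor MCC950 (10 µM). The CCl4 table holds livers of wild-type mice after oil, of wild-type mice after carbon tetrachloride (CCl4, a hepatotoxin), and of mice labelled Sting knock out after CCl4. The injections were intraperitoneal, for 6 weeks by the sample labels and 8 weeks by the design text. The TAA table holds livers after 8 weeks of thioacetamide (TAA), another hepatotoxin, from wild-type animals and from animals that lack Nlrp3 in hepatocytes. The driver of that deletion, the age and sex of the mice, and whether the replicates were separate animals or cultures are not given in the sources used here, so p-values cover the spread between these libraries alone.

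Mitochondria keep a small circular genome whose proteins are all subunits of oxidative phosphorylation. Both strands are copied by the polymerase POLRMT into long RNAs that span many genes, and these are cut mostly at the tRNAs that stand between the coding genes. The rRNAs and tRNAs serve the translation machinery inside the organelle. Hepatocytes are rich in mitochondria, so these transcripts usually make up a visible part of a liver library.

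Depth was 32096879 to 68913793 counts per library in the TAA table, 14353483 to 16684832 recovered reads in the CCl4 table and 14883710 to 17157586 in the hepatocyte table. The hepatocyte transcripts Alb, Apoa1 and Ttr were present in all groups, with Alb at 4926 to 62021 FPKM. The gene for STING, listed under its older symbol Tmem173, was at 6.10, 5.15 and 4.74 FPKM in wild-type CCl4 livers and 3.42, 1.98 and 5.28 in the livers labelled Sting knockout. These ranges overlapped, so the group is called by its label throughout. Nlrp3 had 36, 24 and 28 counts in wild-type TAA livers and 23, 105 and 83 with the hepatocyte deletion, again with overlap. In a whole liver other cells also express it, so its level does not check a deletion in hepatocytes. The libraries are bulk samples, in which fewer cells of a type and less RNA per cell cannot be told apart.

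The 13 mRNAs encode 7 subunits of complex I (mt-Nd1 to mt-Nd6 and mt-Nd4l), cytochrome b of complex III (mt-Cytb), 3 subunits of complex IV (mt-Co1, mt-Co2, mt-Co3) and 2 of ATP synthase (mt-Atp6, mt-Atp8). On mm10, 12 mRNAs, both rRNAs and 14 tRNAs lie on the plus strand of the mitochondrial chromosome, and mt-Nd6 with 8 tRNAs on the minus strand. Neighbours overlap at 9 places. mt-Atp8 (7766 to 7969) and mt-Atp6 (7927 to 8607) share 43 bases, mt-Nd4l and mt-Nd4 share 7, and mt-Nd5 and mt-Nd6 share 14 on opposite strands. Whether counting used strand is something the sources used here do not give, so a read inside an overlap cannot be assigned to one gene from these tables.

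The sequences that the results turn on are shown here 5′ to 3′ from the GENCODE M21 transcripts (GRCm38, the assembly that mm10 names), with capitals for bases shared with an overlapping neighbour. mt-Ts1, a serine tRNA (chrMT:6870-6938, minus strand), had many reads in 1 table and almost none in the others. mt-Tp, the proline tRNA (chrMT:15356-15422, minus strand), had the most tRNA reads in the hepatocyte and CCl4 tables. mt-Tl2, a leucine tRNA (chrMT:11671-11741, plus strand), was called with mt-Tp between CCl4 and oil. mt-Te, the glutamate tRNA (chrMT:14071-14139, minus strand), lies between mt-Nd6 and mt-Cytb. The capitals of mt-Atp8 (chrMT:7766-7969, plus strand) mark the stretch it shares with mt-Atp6.
mt-Ts1: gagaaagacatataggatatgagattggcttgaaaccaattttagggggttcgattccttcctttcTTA
mt-Tp: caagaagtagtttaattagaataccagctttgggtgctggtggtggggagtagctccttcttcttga
mt-Tl2: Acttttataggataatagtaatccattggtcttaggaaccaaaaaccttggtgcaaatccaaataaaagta
mt-Te: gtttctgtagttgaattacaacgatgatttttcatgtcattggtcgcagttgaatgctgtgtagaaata
mt-Atp8: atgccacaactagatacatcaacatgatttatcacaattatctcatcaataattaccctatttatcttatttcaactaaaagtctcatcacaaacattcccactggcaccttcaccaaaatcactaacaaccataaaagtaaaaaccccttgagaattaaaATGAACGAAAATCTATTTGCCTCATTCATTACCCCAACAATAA

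A stretch of mouse chromosome 1 carries a nearly exact copy of part of the mitochondrial chromosome, annotated as 7 pseudogenes between 24611535 and 24616197 (mm10, minus strand). In 4 of 5 comparisons of neighbouring gene starts the spacing was the same in both places: 914 bases from mt-Co2 to mt-Atp6, 680 to mt-Co3, 852 to mt-Nd3 and 290 from mt-Nd4l to mt-Nd4. Only the step from mt-Nd3 to mt-Nd4l differed, at 418 bases against 419. The copies of mt-Co2 (Gm28661), mt-Atp6 (Gm10925), mt-Co3 (Gm28437) and mt-Nd4l (Gm10222) were identical to the mitochondrial gene over 681, 678, 783 and 294 aligned bases. The copy of mt-Nd3 (Gm28438) differed at 1 base of 345, T3C, with positions counted from 1 at the 5′ end of mt-Nd3.

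The first 60 bases of both show that difference in capitals (mt-Nd3, chrMT:9459-9518, plus strand, and Gm28438, chr1:24613060-24613119, minus strand).
mt-Nd3: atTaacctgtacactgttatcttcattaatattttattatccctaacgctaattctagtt
Gm28438: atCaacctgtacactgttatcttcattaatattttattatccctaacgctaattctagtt

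The 3 tables differed in what they held for these genes. Of all 50-base windows, 98.0% or more in mt-Co2, mt-Atp6, mt-Co3, mt-Nd3 and mt-Nd4l also occur in a transcript off the mitochondrial chromosome. The figure was 62.2% for mt-Nd4, 51.1% for mt-Co1, 8.19% for mt-Nd2 and 7.61% for mt-Nd5, and 0 for mt-Nd1, mt-Nd6, mt-Cytb and mt-Atp8. In the TAA table mt-Atp6 held 1053073, 1024590 and 676384 counts in the wild-type livers, and its copy Gm10925 held 1068813, 1051650 and 689870. mt-Co3 and its copy Gm28437 held 905589, 976557 and 597729 and 894954, 967210 and 585207. mt-Co2 and its copy Gm28661 held 886516, 930671 and 617640 and 872999, 912140 and 609541. The counts of each gene and its copy were thus nearly equal. Over the 6 TAA libraries the ratio ran from 0.941 to 1.02 for these 3 pairs. It ran from 0.992 to 0.997 for mt-Nd3 and from 0.998 to 1.08 for mt-Nd4l. In the hepatocyte table the same genes were low, with 339, 259 and 273 reads on mt-Atp6 without inhibitor and 337, 205 and 215 on Gm10925. How reads that match several places were counted is something the sources used here do not give, and its part in these values was not tested.

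**Figure D1:**
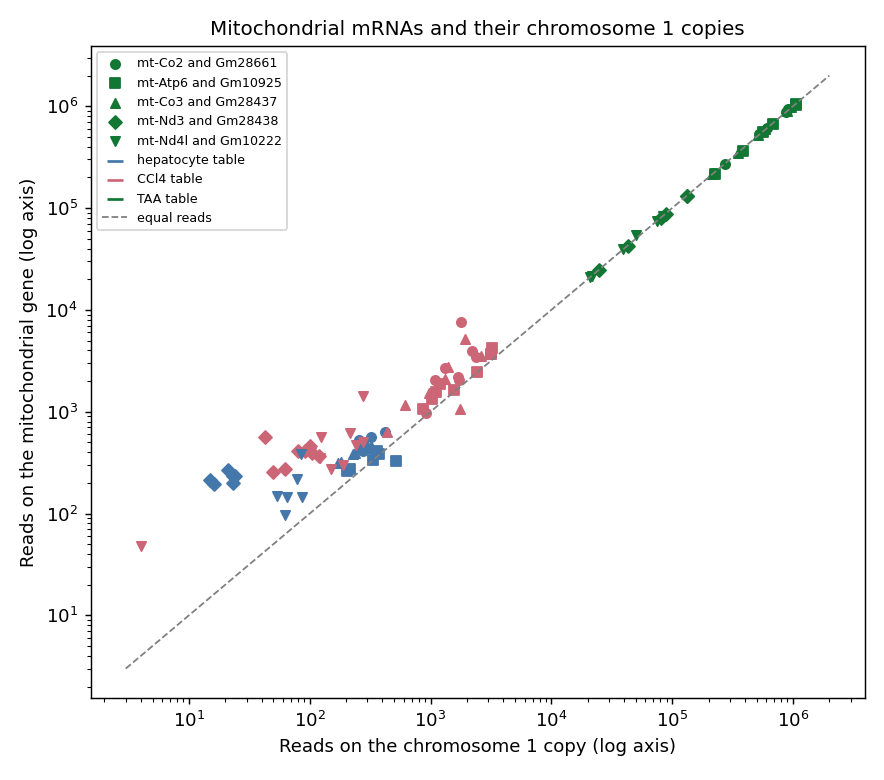
Reads on 5 mitochondrial mRNAs (vertical, log axis) against reads on their chromosome 1 copies (horizontal, log axis), 1 point per library and pair, coloured by table; the dashed line marks equal reads. The TAA points lie along the line at 20916 to 1068813 reads, and the other tables lie far lower and mostly above the line.

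The make-up of mitochondrial mRNA reads followed the same division. As a share of mitochondrial mRNA reads, mt-Co2 took 5.79% to 8.43% in the TAA libraries, 0.174% to 0.734% in the CCl4 table and 0.0712% to 0.0987% in the hepatocyte table. mt-Atp8 took 0.908% to 2.52% in the TAA libraries and at most 0.00583% in the others, although no annotated nuclear transcript shares its 50-base windows. It lies inside the copied stretch by position, between the genes for mt-Co2 and mt-Atp6, as do mt-Tk and, on the other side of mt-Co2, mt-Td and mt-Ts1. The tRNAs mt-Td and mt-Tk had 0 reads in all 15 libraries of the hepatocyte and CCl4 tables, and mt-Ts1 had at most 1 read in each, against 5426 to 30703 counts in the TAA libraries. The other 2 tRNAs inside the stretch, mt-Tg and mt-Tr, had at least 1 read in all 21 libraries, and mt-Tf, which lies outside it, had 0 reads in the same 15. Counts of 0 in these tables therefore describe the tables and were not read as absence of the RNA.

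**Figure D2:**
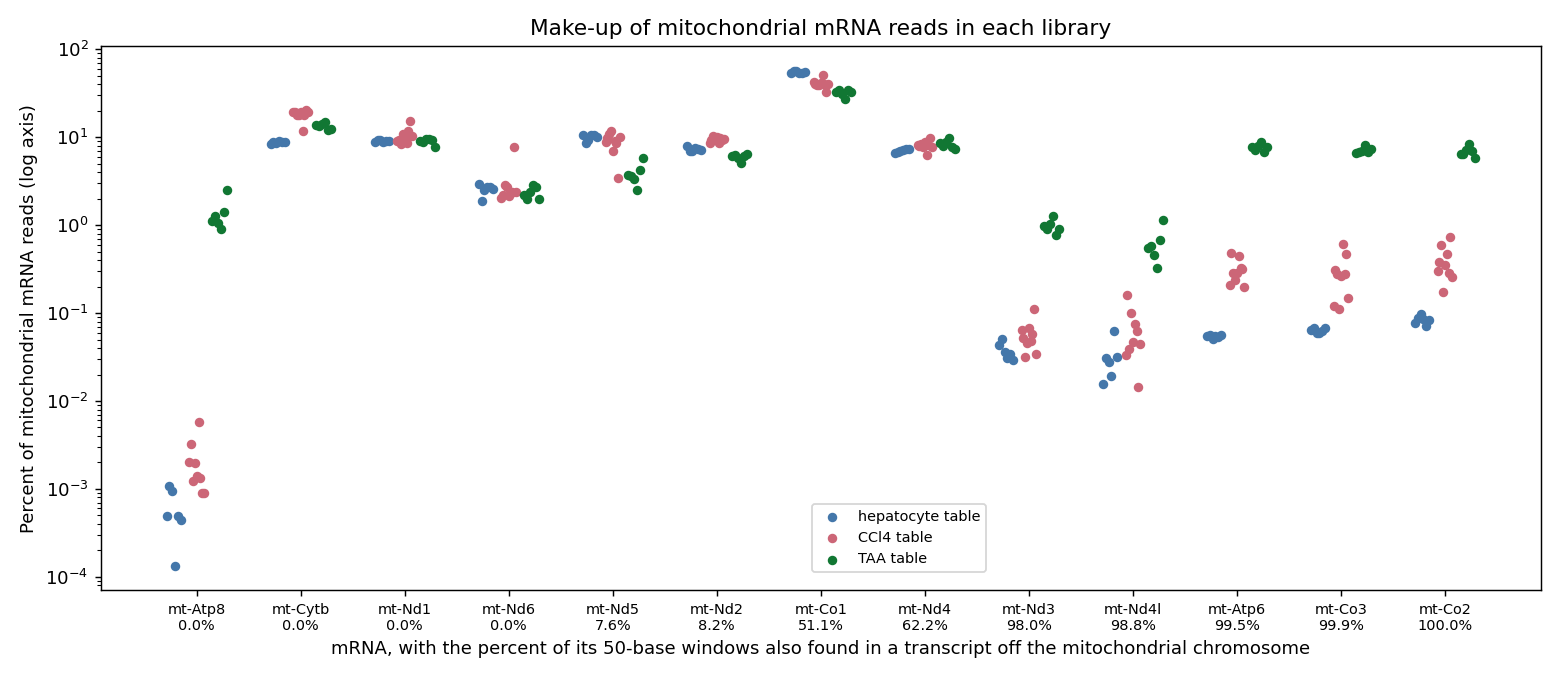
Percent of mitochondrial mRNA reads on each of the 13 mRNAs (vertical, log axis), 1 point per library, coloured by table and ordered by the percent of 50-base windows shared with a transcript off the mitochondrial chromosome (under each name). The 5 genes at 98.0% or more, and mt-Atp8, are lower in the hepatocyte and CCl4 tables than in every TAA library; mt-Co1, mt-Nd1, mt-Nd4 and mt-Cytb lie within one order of magnitude in all tables.

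Per length, mt-Co1, the catalytic subunit of complex IV, had the highest mRNA level in every group. It stood at 14657, 10539 and 11794 FPKM in hepatocytes without inhibitor, 16281, 17822 and 31073 in oil livers and 51297, 61639.7 and 44011 in wild-type TAA livers. mt-Cytb was the next highest mRNA in both wild-type groups of the CCl4 table and in wild-type TAA livers, and mt-Nd1 in hepatocytes without inhibitor. mt-Nd6, the minus-strand mRNA, was at 2358, 1039 and 1558 FPKM in those hepatocytes and 2283, 2902 and 6739 in oil livers, the lowest mean of the 7 mRNAs that held over 1% of mRNA reads in both. The tables were normalized separately, so levels were not compared between them.

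Mitochondrial genes took a far smaller share of all reads in TAA livers with hepatocyte Nlrp3 deletion (12.5, 5.63 and 6.94%) than in wild-type TAA livers (30.4, 34.7 and 27.8%). The groups did not overlap, and the means in wild type and with the deletion were 31.0 ± 3.46% and 8.36 ± 3.64% (SD, n = 3 each), a 3.70-fold difference. The mRNAs made up most of it, at 29.6, 33.4 and 26.7% in wild type and 12.2, 5.56 and 6.86% with the deletion. The rRNAs differed more in proportion, from 0.659, 1.14 and 0.961% to 0.172, 0.0467 and 0.0545%, 10.1-fold between the means. The tRNAs were at 0.135, 0.139 and 0.128% and 0.0776, 0.0258 and 0.0232%. With 3 against 3 libraries the exact two-sided permutation test cannot go below p = 0.1, and all 4 shares reached that value (adjusted p = 0.2 over the 16 shares compared). Counted without the 7 mRNAs that share over 50% of their 50-base windows with nuclear transcripts, a step chosen after seeing the data, the difference in share was -8.68 points in place of -22.6. This step takes reads out of the mitochondrial share in both groups, so the points shrink even at an equal fold difference. The log2 fold changes of all 13 mRNAs, those 7 among them, lay between -2.37 and -1.90.

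CCl4 livers of wild-type mice had a lower mitochondrial share than oil livers, by a narrower margin. The share was 5.40, 5.75 and 9.16% after oil and 3.42, 3.61 and 5.36% after CCl4, so the highest CCl4 library lay just under the lowest oil library. Means after oil and CCl4 were 6.77 ± 2.08% and 4.13 ± 1.07% (SD, n = 3 each). The mRNA share was 5.34, 5.62 and 8.97% after oil and 3.38, 3.50 and 5.25% after CCl4. The tRNA shares lay furthest apart in proportion, at 0.0169, 0.0238 and 0.0354% and 0.00855, 0.0102 and 0.0101%, while the rRNA shares overlapped at 0.0446, 0.109 and 0.157% and 0.0323, 0.0936 and 0.105%. Between libraries of the same replicate number the rRNA share was lower after CCl4 in 3 of 3. The labels do not pair these libraries, so that count adds no support to the unpaired test. Exact permutation p over the unpaired groups was 0.1 for the first 3 of these shares and 0.4 for rRNA (adjusted p = 0.2 and 0.582). Oil replicate 3 was the highest library; without it the difference in total share was -1.44 points in place of -2.64. Computed from summed FPKM, in which short genes weigh more, the total and mRNA shares of the groups overlapped (exact permutation p = 0.3 for both).

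Livers labelled Sting knockout after CCl4 had mitochondrial shares of 4.65, 2.21 and 5.06%, which overlapped with wild type after CCl4 (exact permutation p = 0.9). Replicate 2 of that group was the lowest of the 9 libraries of the table in total share; without it the difference from wild type was 0.727 points in place of -0.155. The tRNA share alone did not overlap, at 0.0156, 0.0117 and 0.0148% against 0.00855, 0.0102 and 0.0101% in wild type (exact permutation p = 0.1, adjusted p = 0.2). In hepatocytes the share was 4.32, 3.12 and 3.56% without inhibitor and 4.51, 3.82 and 4.12% with MCC950, overlapping ranges (exact permutation p = 0.3, adjusted p = 0.48). The rRNA share was 0.144, 0.122 and 0.135% and 0.140, 0.118 and 0.138%, and the tRNA share 0.0306, 0.0203 and 0.0223% and 0.0219, 0.0234 and 0.0227%. Neither class of RNA separated the hepatocyte groups.

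**Figure D3:**
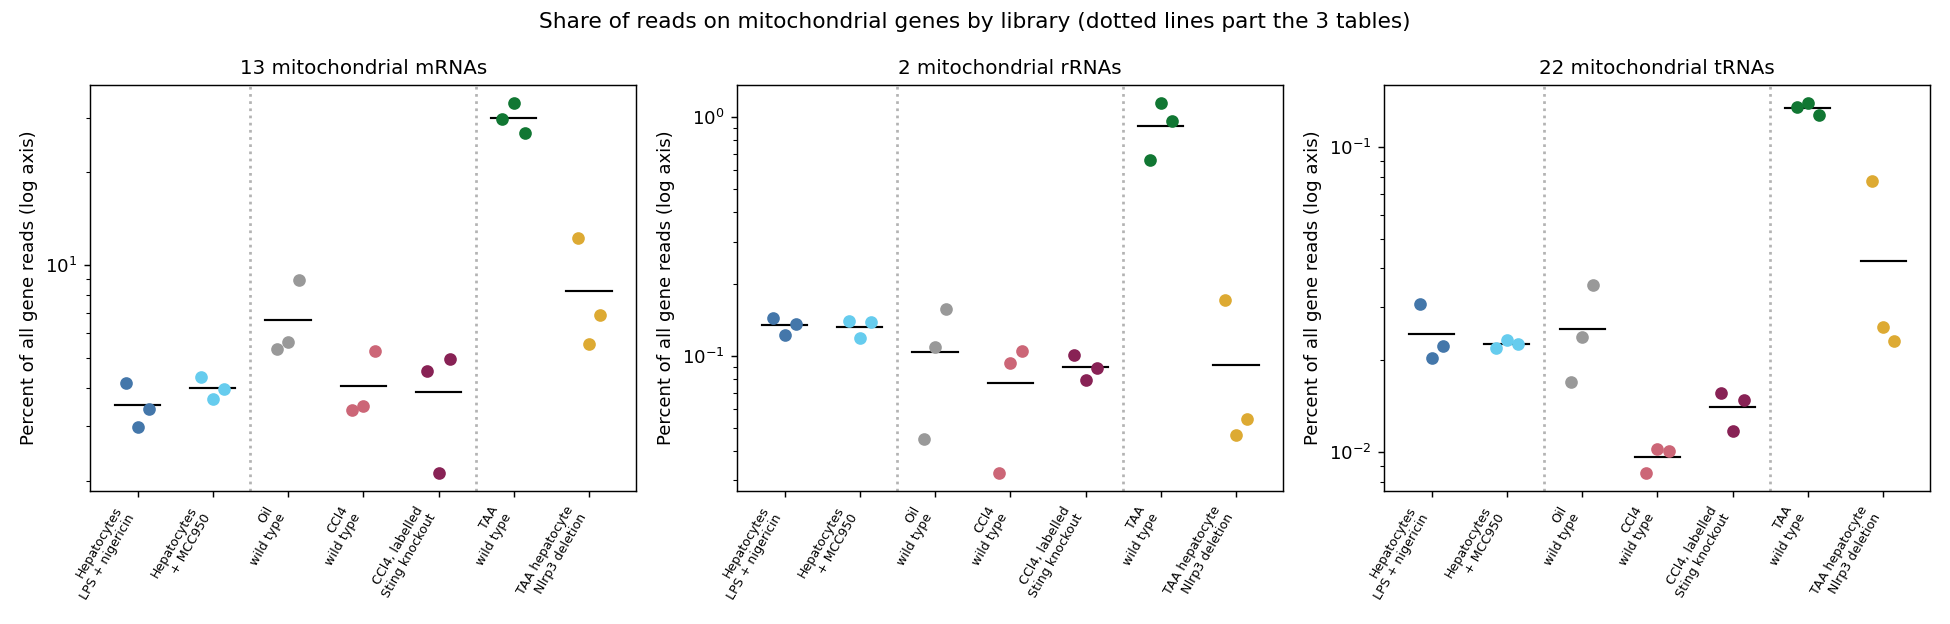
Percent of all gene reads on mitochondrial mRNAs, rRNAs and tRNAs (vertical, log axis) in each of the 21 libraries; points are libraries, horizontal bars group means, and dotted lines part the 3 tables. The 3 deletion livers sit below all 3 wild-type TAA livers in each panel, and the oil and CCl4 points overlap for rRNA, lie next to each other for mRNA and are apart for tRNA.

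Gene by gene, the hepatocyte Nlrp3 deletion went with lower counts for every member tested. edgeR's quasi-likelihood test called 15 of 36 members at an adjusted p under 0.05, all lower, against 1.73% of all 18619 genes called, 1.37% higher and 0.36% lower. All 36 were lower in each deletion liver than in every wild-type liver in CPM (counts scaled to library size), where 6.85% of all genes were (35.1% did not overlap in either direction). The remaining member, mt-Tg, fell below the filter at 2 to 15 counts. The log2 fold changes of the mRNAs ran from -2.37 to -1.90 with a median of -2.13, while the median of all genes was -0.04.

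Among complex I genes, mt-Nd1 was at 23079, 25289.6 and 21895 FPKM in wild type and 9916, 4457 and 4595 with the deletion, a log2 fold change of -2.26 ± 0.43 SE and an edgeR adjusted p of 0.04995. mt-Nd2 was at 14280.1, 16523 and 12156 and 4829.9, 2735 and 3564 FPKM (-2.34 ± 0.37 SE, adjusted p = 0.0487). mt-Nd5 was at 4891, 5389 and 4012 and 1365, 1075 and 1825 FPKM (-2.15 ± 0.34 SE, adjusted p = 0.0487). In all 3 the deletion livers lay below all wild-type livers, and replicate 1 of the deletion group was the highest of its group for mt-Nd1 and mt-Nd2 but not for mt-Nd5. The other complex I genes did not pass: mt-Nd3 at -2.11, mt-Nd4 at -2.19, mt-Nd4l at -2.02 and mt-Nd6 at -1.98 on the log2 scale, with edgeR adjusted p from 0.0501 to 0.0569. mt-Co1 was at 51297, 61639.7 and 44011 FPKM in wild type and 17535, 10198 and 12227 with the deletion (-2.37 ± 0.40 SE, adjusted p = 0.0487). mt-Cytb, at 29508, 31862 and 26573 and 12796, 4815 and 6178 FPKM, had a log2 fold change of -2.26 ± 0.46 SE and an adjusted p of 0.05008. mt-Atp6 (-2.13), mt-Co3 (-2.08), mt-Co2 (-2.09) and mt-Atp8 (-1.90) had adjusted p from 0.0501 to 0.0524. The line between called and uncalled mRNAs thus fell among genes of nearly the same fold change.

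The rRNAs had the lowest fold changes of the called members. mt-Rnr1, the small-subunit rRNA (chrMT, bases 70 to 1024), was at 2379, 4058 and 3539 FPKM in wild type and 656, 174 and 171 with the deletion (-3.70 ± 0.67 SE, edgeR adjusted p = 0.0487). mt-Rnr2, the large-subunit rRNA, was at 1974, 3445 and 2801 and 478, 139 and 184 FPKM (-3.75 ± 0.60 SE, adjusted p = 0.0487). Per 100 mitochondrial mRNA reads there were 2.23, 3.42 and 3.60 rRNA reads in wild type and 1.40, 0.839 and 0.793 with the deletion, with no overlap. The ratio of tRNA to mRNA reads overlapped between the groups.

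Of the 21 tRNAs tested, 9 were called lower: mt-Tl1, mt-Tq, mt-Tm, mt-Tw, mt-Ta, mt-Tn, mt-Tc, mt-Ty and mt-Tp, with log2 fold changes from -2.42 to -1.88. mt-Tp was at 1269, 1712 and 1084 FPKM in wild type and 580.3, 338 and 461 with the deletion (-1.97 ± 0.36 SE, edgeR adjusted p = 0.0487). mt-Ts1 and mt-Te had the most tRNA reads in this table and were not called. mt-Ts1 was at 7935, 7457 and 8184 and 5419.9, 1308 and 953.9 FPKM (-1.95 ± 0.65 SE, adjusted p = 0.102), with replicate 1 of the deletion group close to the wild-type livers. mt-Te was at 3871, 4141 and 3564 and 2026, 738 and 659.9 FPKM (-2.12 ± 0.49 SE, adjusted p = 0.0537). The tRNAs with the lowest values, mt-Tf, mt-Tk, mt-Tr, mt-Th, mt-Ts2, mt-Tl2 and mt-Tt, from -3.15 to -2.82, had at most 86 counts in any TAA library and did not pass. mt-Ti (-2.53) and mt-Td (-2.46) did not pass either. mt-Tv, which lies between the rRNA genes, had 15, 17 and 16 counts in wild type and 0 in each deletion liver. Set against a floor of 3 counts over the deletion group, it was at least 23.6-fold lower in CPM; counting error alone is covered.

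Other RNA classes moved with the same groups. Genes annotated as nuclear rRNA took 1.17, 9.14 and 8.55% of reads in wild-type TAA livers and 0.292, 0.267 and 0.386% with the deletion. Lars2, a nuclear gene for a mitochondrial leucine tRNA ligase, took 0.175, 1.18 and 1.19% and 0.0340, 0.0214 and 0.0186%. The 11 nuclear copies of mitochondrial DNA took 8.97, 9.86 and 8.53% and 4.44, 1.70 and 2.08%. Of these copies 3, Gm28439, Gm10222 and Gm13340, were called lower, where 0.36% of all genes were. Alb took 1.49, 1.62 and 1.42% and 4.37, 6.61 and 6.54%, and nuclear protein-coding genes together 49.96, 39.1 and 46.2% and 71.6, 81.6 and 80.6%. Their part in the mitochondrial difference was not tested. Among protein-coding and mitochondrial genes alone, the mitochondrial share was 37.8, 47.0 and 37.6% and 14.8, 6.46 and 7.93%, still without overlap. No marker list of another cell type (macrophage, neutrophil, stellate, endothelial, cholangiocyte, lymphocyte, red cell, muscle and mesothelium) had a called member here. The summed levels in wild type and with the deletion did not overlap for 4 of these lists, all higher with the deletion: macrophage at 97.0 to 121 and 139.7 to 432 FPKM, endothelial at 14.9 to 16.2 and 22.1 to 53.9 FPKM, lymphocyte at 5.47 to 7.40 and 9.71 to 13.3 FPKM and red blood cell at 87.2 to 133 and 172 to 417 FPKM. They overlapped for neutrophil (7.64 to 9.48 and 8.82 to 31.9 FPKM), stellate cell (21.1 to 36.7 and 32.8 to 93.5 FPKM), cholangiocyte (67.7 to 172 and 97.2 to 206 FPKM) and muscle and mesothelium markers (0.880 to 4.48 and 1.43 to 8.69 FPKM). Of all genes tested, 28.2% were higher with the deletion without overlap in CPM. Nuclear protein-coding genes together took a larger share of reads in the deletion livers, and FPKM carries that shift. Higher sums are thus not a measure of more cells. The 7 hepatocyte markers found summed to 9071 to 9761 and 24612 to 31156 FPKM. Of the hepatocyte markers 1 was called higher, Serpina1a, where 1.37% of all genes were. No marker on any list was at 0 in all 6 libraries. The part of these in the mitochondrial difference was not tested either.

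The count of called members hung on the scaling and on single libraries, with the direction lower throughout. It was 0 with RLE factors, 24 with factors and library sizes from the nuclear genes alone, 36 with DESeq2, and 0 with any one library left out except replicate 1 of the deletion group, without which it was 33. Without TMM factors the median of all genes shifted by 0.35 and the mRNA median was -1.76, and against the total of nuclear protein-coding genes these values were -0.43 and -2.53.

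Of the nuclear genes that serve the organelle, few passed the test and none of those was lower, where 1.37% of all genes were called higher and 0.36% lower. Of 28 genes for processing and stability of mitochondrial RNA, 1 rose and 0 fell, with a median log2 fold change of -0.0011. It was Hsd17b10, a subunit of the enzyme that cuts tRNAs out of mitochondrial RNA at their 5′ ends, at 48.5 ± 6.06 and 141 ± 14.2 FPKM (mean ± SD, n = 3 in each group), log2 fold change 1.16, adjusted p = 0.0487 by edgeR. Of 16 genes of the outer membrane, import and mitochondrial mass, 2 rose and 0 fell, with a median of 0.63: the chaperonin Hspe1 at 29.4 ± 3.29 and 94.4 ± 11.03 FPKM (mean ± SD, n = 3 in each group), log2 fold change 1.29, adjusted p = 0.0487, and the channel Vdac1 at 19.7 ± 2.69 and 65.5 ± 21.8 FPKM (mean ± SD, n = 3 in each group), log2 fold change 1.35, adjusted p = 0.04995. Of 13 genes of mitophagy and mitochondrial dynamics 1 rose, the mitophagy receptor Bnip3, at 29.9 ± 4.45 and 89.7 ± 21.2 FPKM (mean ± SD, n = 3 in each group), log2 fold change 1.21, adjusted p = 0.0487. Of 16 genes of transcription and DNA replication, 25 of translation factors and tRNA ligases and 9 biogenesis regulators none passed the edgeR test, with medians of -0.38, -0.14 and 0.27. The 4 calls in these lists lie just under the threshold. For these 4 genes the FPKM means differ by more than the log2 fold changes, which use TMM factors. Without those factors the median of all genes shifted by 0.35. Of all genes 322 were called, against 0 without wild-type replicate 2 or 3, 16 without wild-type replicate 1, 2 and 3 without deletion replicates 2 and 3, 7555 without deletion replicate 1 and 1 with RLE factors.

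**Figure D4:**
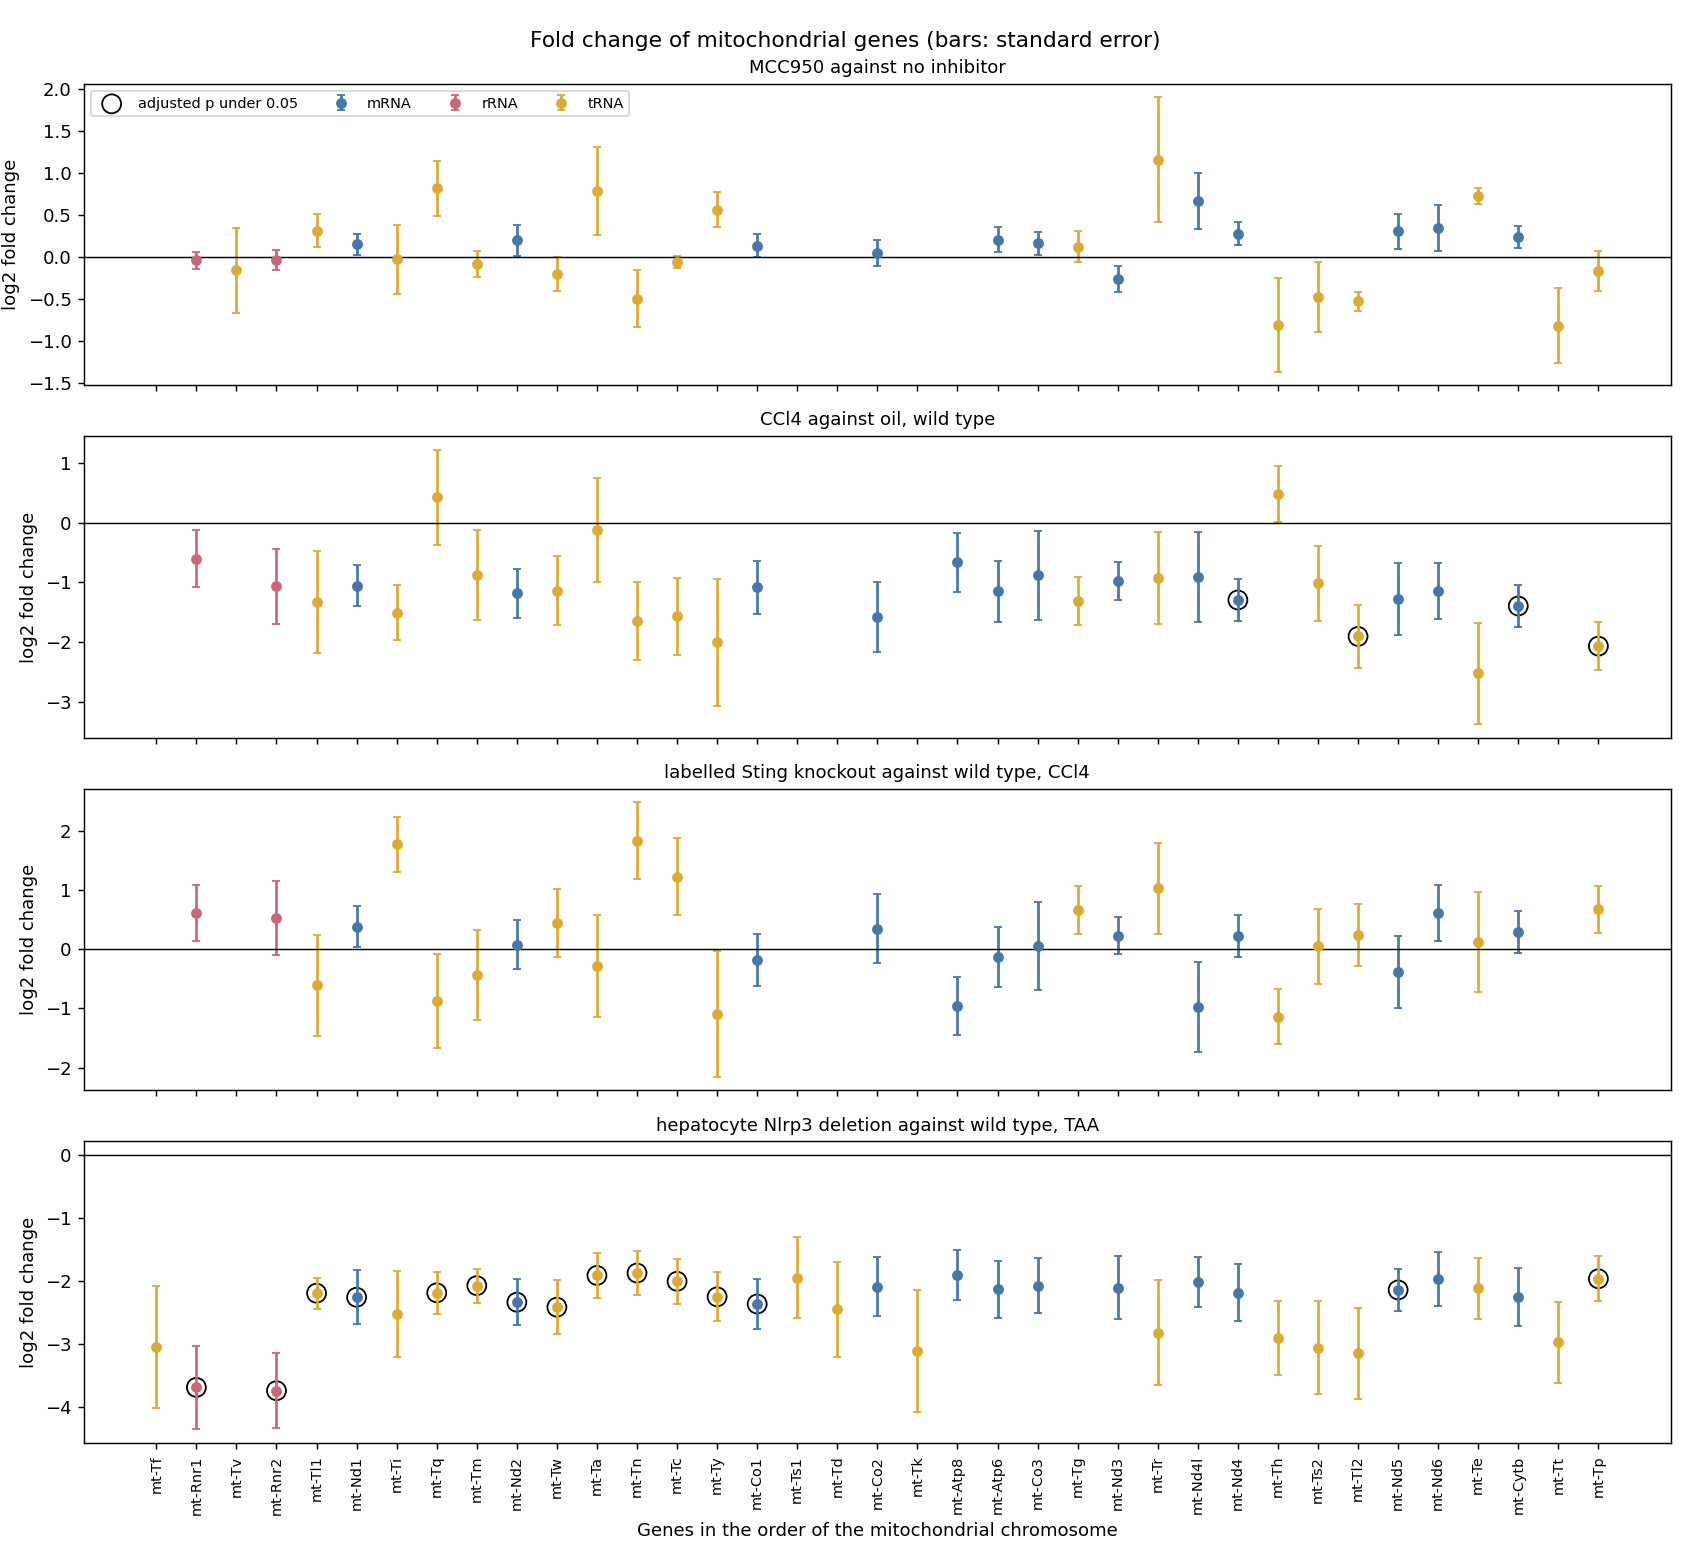
Log2 fold change of each mitochondrial gene in the 4 comparisons (vertical; bars are the standard error), in the order of the mitochondrial chromosome and coloured by RNA class; rings mark an adjusted p under 0.05. mt-Tv is left out of the lowest panel because all 3 deletion livers had 0 counts. In that panel every point lies below 0, with the 2 rRNAs under the mRNAs.

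Between CCl4 and oil in wild-type livers, limma called 4 of 31 members tested, all lower: mt-Cytb, mt-Nd4, mt-Tp and mt-Tl2. Of all 11511 genes 15.3% were called, 9.19% higher and 6.15% lower. All 13 mRNAs had negative log2 fold changes, with a median of -1.15 against -0.08 for all genes. The size hung on the scaling. Deposited FPKM in this table was not scaled to library size alone. The value of 1 read (FPKM times gene length) was 65.7, 76.4 and 93.6 after oil. After CCl4 in wild type it was 55.0, 52.4 and 53.8, so FPKM differences are larger than differences in read share. The mRNA and all-gene medians were -1.16 and -0.09 with TMM scaling, and -0.73 and 0.26 with equal sums off the mitochondrial chromosome. For 8 of the 13 the groups did not overlap in FPKM, all lower, as for 21.4% of all genes (38.1% in either direction). This count hung on the scaling too: as a share of all reads mt-Co1 and mt-Nd6, for example, overlapped. With the replicate number as a block, 6 members were called. Fold changes here are on the log2(FPKM + 1) scale.

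mt-Cytb was at 9954, 11381 and 18929 FPKM after oil and 4882, 5145 and 4711 after CCl4, a log2 fold change of -1.39 ± 0.35 SE and a limma adjusted p of 0.0235. The CCl4 livers were close to each other, and oil replicate 3 stood above the other oil livers. mt-Nd4, of complex I, was at 3495, 3949 and 7327 and 1747, 1908 and 2059.6 FPKM (-1.29 ± 0.36 SE, adjusted p = 0.0332). The other complex I genes did not pass. mt-Nd1 was at 5615, 6673 and 10575 and 3567, 3023 and 4090.3 FPKM (-1.06 ± 0.34 SE, adjusted p = 0.0626). mt-Nd2, mt-Nd3, mt-Nd5 and mt-Nd6 were also without overlap in FPKM, at -1.18, -0.98, -1.27 and -1.15, and mt-Nd4l overlapped at -0.91. mt-Co1 was at 16281, 17822 and 31073 and 7789, 8118 and 15027 FPKM (-1.08 ± 0.44 SE, limma adjusted p = 0.13), again without overlap in FPKM. As a share of all reads, mt-Co1 and mt-Nd6 in CCl4 replicate 3 lay above the lowest oil liver, so the groups overlapped. mt-Co2, mt-Co3, mt-Atp6 and mt-Atp8 overlapped between the groups, at -1.58, -0.88, -1.15 and -0.67. These 4 and mt-Nd4l are low in this table, at 2.06 to 1046 FPKM in the 2 groups.

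The rRNAs did not pass. mt-Rnr1 was at 204, 494 and 637 FPKM after oil and 158, 310.0 and 371 after CCl4 (-0.60 ± 0.47 SE, limma adjusted p = 0.462). mt-Rnr2 was at 186, 529.8 and 949 and 91.5, 319.9 and 347 FPKM (-1.06 ± 0.63 SE, adjusted p = 0.309). Replicate 1 was the lowest of its group for both rRNAs in both groups. Within each replicate number both were lower after CCl4, but the labels do not give these numbers as pairs. Among tRNAs, mt-Tp was at 1639, 2149.6 and 3590.5 FPKM after oil and 546, 388 and 815 after CCl4 (-2.06 ± 0.40 SE, adjusted p = 0.0068). mt-Tl2 was at 138, 215 and 111 and 71.3, 35.4 and 23.5 FPKM (-1.90 ± 0.52 SE, adjusted p = 0.0332). mt-Te was at 382, 539.5 and 1235 and 242, 116 and 46.8 FPKM (-2.52 ± 0.85 SE, adjusted p = 0.0708), without overlap but with a wide spread. mt-Ty, mt-Tg and mt-Ti were also lower without overlap and not called, at -2.0, -1.31 and -1.51. mt-Th and mt-Tq had positive values of 0.48 and 0.42 that did not pass (adjusted p = 0.57 and 0.796). The other 8 tRNAs tested lay between -1.64 and -0.12, with overlap.

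Of the 4 calls, mt-Tp held with each library left out in turn, with limma adjusted p from 0.00565 to 0.0347. mt-Cytb and mt-Nd4 were not called without oil replicate 2 or 3 or any one of the CCl4 replicates, with adjusted p up to 0.0958 and 0.126, and mt-Nd4 was not called without replicate 1 labelled Sting knockout either. mt-Tl2 was lost without any one oil replicate or without CCl4 replicate 2 or 3 (adjusted p up to 0.126). With quantile normalization no member was called, and the mRNA median was -0.37. Markers of other liver cells moved with the groups: 7 of 8 macrophage markers rose (summed level 245 to 357 and 1126 to 1583 FPKM), as did 4 of 4 neutrophil markers tested (5.41 to 16.4 and 63.8 to 136 FPKM) and 6 of 8 stellate cell and myofibroblast markers (44.8 to 57.4 and 192 to 414 FPKM). Of the endothelial, cholangiocyte and lymphocyte lists 1 marker each rose, of the red blood cell list 1 of 5 fell, and of muscle and mesothelium 0 of 2 tested were called. Of all genes 9.19% were called higher and 6.15% lower. The 7 hepatocyte markers found had 0 called and summed to 48021 to 64959.7 and 36249 to 54209 FPKM, and Alb took 7.38, 7.53 and 9.02% of reads after oil and 7.61, 6.00 and 11.8% after CCl4. No marker on these lists was at 0 in all libraries. Genes annotated as nuclear rRNA took 0.186, 0.133 and 0.0657% of reads after oil and 0.116, 0.0774 and 0.0483% after CCl4, with overlap. This share was lower after CCl4 within each replicate number, which the labels do not give as a pairing. Lars2 was at 14.5 to 18.9 FPKM after oil and 8.28 to 9.22 after CCl4, without overlap. The part of these and of cell makeup in the mitochondrial values was not tested.

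Of 26 tested genes for processing and stability of mitochondrial RNA, 4 fell and 0 rose after CCl4 by limma, with a median of -0.31. Of all 11511 genes 6.15% were called lower and 9.19% higher, so 1 call in a list of 12 to 24 genes lies near that share. Hsd17b10 was at 150.2 ± 17.5 and 45.5 ± 4.89 FPKM (mean ± SD, n = 3 in each group), log2 fold change -1.70, adjusted p = 0.0128. Fastkd1, a member of a family that acts on mitochondrial mRNA stability, was at 4.68 ± 0.759 and 2.53 ± 0.374 FPKM (mean ± SD, n = 3 in each group), log2 fold change -0.68, adjusted p = 0.0267. Grsf1, an RNA-binding protein of mitochondrial RNA granules, was at 43.5 ± 5.47 and 24.7 ± 0.854 FPKM (mean ± SD, n = 3 in each group), log2 fold change -0.78, adjusted p = 0.0333. Mrm3, a methyltransferase of the large mitochondrial rRNA, was also called. Of 13 genes for transcription and replication 1 fell, the polymerase subunit Polg2, at 1.91 ± 0.0677 and 0.824 ± 0.123 FPKM (mean ± SD, n = 3 in each group), log2 fold change -0.68, adjusted p = 0.0447. Of 24 translation factors and tRNA ligases 1 fell, the asparagine tRNA ligase Nars2, at 5.19 ± 1.46 and 1.76 ± 0.339 FPKM (mean ± SD, n = 3 in each group), log2 fold change -1.15, adjusted p = 0.00531. Of 12 mitophagy and dynamics genes 1 fell, Bnip3, at 53.1 ± 14.6 and 20.9 ± 7.45 FPKM (mean ± SD, n = 3 in each group), log2 fold change -1.34, adjusted p = 0.0179. Of 16 outer membrane and import genes and 7 biogenesis regulators 0 were called, with medians of -0.40 and -0.24. The medians of all 6 lists were negative, from -0.41 to -0.24, against -0.08 for all genes and -0.22 for genes at a mean of at least 5 FPKM.

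In livers labelled Sting knockout against wild type after CCl4, limma called 0 of 31 members, as it called 0.0% of all 11511 genes; 366 genes had an unadjusted p under 0.05, and edgeR on the recovered reads called 0 members too. The mRNA median was 0.07. mt-Co1 was at 11374, 5410.2 and 10534 FPKM against 7789, 8118 and 15027 in wild type (-0.18 ± 0.44 SE, adjusted p = 0.889). mt-Nd1 was the single mRNA without overlap in FPKM, at 5337, 4110.3 and 4427 against 3567, 3023 and 4090.3 in wild type (0.38 ± 0.34 SE, limma adjusted p = 0.762). Of all genes 2.35% were higher without overlap and 5.13% did not overlap in either direction. This separation of mt-Nd1 hung on the scaling of FPKM. The value of 1 read was 77.3 in replicate 2 labelled Sting knockout and 55.0, 52.4 and 53.8 in wild type. As a share of all reads the groups overlapped, and that replicate, with 50889 mt-Nd1 reads, lay below every wild-type liver. mt-Rnr1 was at 399, 503 and 319 FPKM and mt-Rnr2 at 373, 304 and 271, with overlap. Of the tRNAs, mt-Tn was higher without overlap, at 195, 532 and 168 FPKM against 65.9, 155 and 37.1 (1.83 ± 0.65 SE, adjusted p = 0.761), as was mt-Ti on 9 to 22 reads against 2 to 7, and mt-Th was lower on 12 to 21 reads against 28 to 68, where 2.78% of all genes were lower without overlap. The other mRNAs lay between -0.98 for mt-Nd4l and 0.61 for mt-Nd6: mt-Cytb at 0.29, mt-Nd2 at 0.07, mt-Nd3 at 0.23, mt-Nd4 at 0.22, mt-Nd5 at -0.39, mt-Co2 at 0.34, mt-Co3 at 0.05, mt-Atp6 at -0.13 and mt-Atp8 at -0.96. None of these passed the test. The mRNA median turned negative with other scalings, at -0.10 with equal sums off the mitochondrial chromosome and -0.26 with quantile normalization.

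Replicate 2 labelled Sting knockout had a make-up of its own. mt-Nd6 took 2.36, 7.83 and 2.40% of mitochondrial mRNA reads in the 3 libraries of that group, against 2.72, 2.16 and 2.31% in wild type after CCl4. mt-Nd5, whose gene overlaps mt-Nd6 on the other strand, took 8.69, 3.44 and 10.2%, against 11.7, 7.01 and 9.16% in wild type. In that library mt-Nd6 was thus the highest and mt-Nd5 the lowest of the 9 libraries of the table. mt-Ty, on the minus strand, was at 52.8, 1.15 and 52.5 FPKM and mt-Te at 279, 29.1 and 208, again with replicate 2 lowest. mt-Nd4l had 468, 48 and 350 reads. The copy Gm28439 had 818, 39 and 519 reads. In wild type after CCl4, replicate 3 stood apart in mt-Cytb, at 18.02, 19.6 and 11.9% of mRNA reads, and in mt-Co1, at 38.8, 41.8 and 51.4%. Red blood cell markers summed to 271 to 1092 and 1893 to 3051 FPKM in wild type and the labelled knockout, with 0 of 5 called. Without replicate 2 labelled Sting knockout the count called between CCl4 and oil was 10 in place of 4.

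In hepatocytes, MCC950 before LPS and nigericin was compared with no inhibitor, and limma called 0 of 32 members; 0.0% of all 9835 genes were called, and 1168 genes had an unadjusted p under 0.05. edgeR on the recovered reads also called 0 members. Of the 12 mRNAs tested 11 had positive values, with a median of 0.20 against -0.01 for all genes. mt-Nd4 was at 1999, 1389.7 and 1649 FPKM without inhibitor and 2182, 1844 and 2019 with it (0.28 ± 0.14 SE, adjusted p = 0.45). mt-Cytb was at 3022, 2207 and 2429.8 and 3275, 2699.9 and 2994 FPKM (0.24 ± 0.13 SE, adjusted p = 0.474). mt-Nd5 was at 2446, 1331 and 1680.2 and 2435, 2021 and 2087 FPKM, and mt-Nd6 at 2358, 1039 and 1558 and 2215, 1837 and 1908. In all 4, replicate 1 without inhibitor lay within the MCC950 range or above it, so the groups overlapped. mt-Co1, at 14657, 10539 and 11794 and 14556, 12080.3 and 13564 FPKM, differed by 0.13 ± 0.14 SE on the log2 scale, and mt-Nd1 and mt-Nd2 by 0.15 and 0.20. Of the 5 low mRNAs that could be tested, mt-Nd3 had the one negative value, -0.26, and mt-Nd4l the highest, 0.67, with mt-Co2, mt-Co3 and mt-Atp6 at 0.05, 0.16 and 0.20; mt-Atp8 had 1 to 5 reads and fell below the filter. The rRNAs were close to equal: mt-Rnr1 at 693, 598 and 661 and 655, 555 and 690.2 FPKM (-0.04 ± 0.10 SE), mt-Rnr2 at 493, 377 and 418 and 453, 372 and 427 FPKM (-0.04 ± 0.12 SE).

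Single tRNAs separated the hepatocyte groups without passing the test. mt-Te was at 107, 87.9 and 107 FPKM without inhibitor and 182, 159 and 160.2 with MCC950 (0.73 ± 0.10 SE, limma adjusted p = 0.354). mt-Ty was at 65.4, 108 and 119.8 and 137, 136 and 148 FPKM (0.56 ± 0.21 SE, adjusted p = 0.402), and mt-Tq was higher on 3 to 14 reads. mt-Tl2 was lower, at 45.6, 53.5 and 42.0 and 32.4, 35.6 and 28.6 FPKM (-0.53 ± 0.11 SE, adjusted p = 0.39). So 3 of 18 tRNAs tested were higher and 1 lower without overlap, where 8.88% and 10.8% of all genes were. mt-Tn replicate 1 without inhibitor stood apart at 447, 174 and 193 FPKM in the 3 libraries, as did mt-Tp at 2760.1, 1450.5 and 1509. Of the 6 nuclear lists for mitochondrial functions no gene was called by limma, with a highest median of 0.08. Macrophage markers summed to 97.3 to 109 and 95.4 to 106 FPKM, stellate cell markers to at most 0.173 FPKM, and Col1a1 and Acta2 were at 0 in all 6 libraries.

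Most tRNA reads in all tables were counted on genes annotated on the minus strand; the strand of the reads themselves is not known from these files. Those 8 tRNA genes took 82.2% to 95.4% of tRNA reads per library. In hepatocytes mt-Tp led with 60.2, 50.1 and 47.6% of tRNA reads without inhibitor, followed by mt-Tc. After oil mt-Tp took 59.1, 50.3 and 50.5% and after CCl4 46.7, 29.6 and 62.8%. In TAA livers mt-Ts1 took 49.6, 45.3 and 54.5% in wild type and 59.9, 42.4 and 34.0% with the deletion, and mt-Te 24.2, 25.2 and 23.7% and 22.4, 23.9 and 23.5%. mt-Ts1 overlaps mt-Co1, on the other strand, by the 3 bases in capitals in its sequence. mt-Te (14071 to 14139) adjoins mt-Nd6 (13552 to 14070) on the same minus strand and comes before it in the direction of that strand. mt-Cytb, on the other strand, begins at base 14145, beyond the 5′ end of mt-Te. Reads of a neighbour and of the tRNA cannot be told apart in these tables. At least 10 reads in every library were reached by 14 of 22 tRNAs in the TAA table, 11 in the hepatocyte table and 8 in the CCl4 table, so values of the others rest on few reads.

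**Figure D5:**
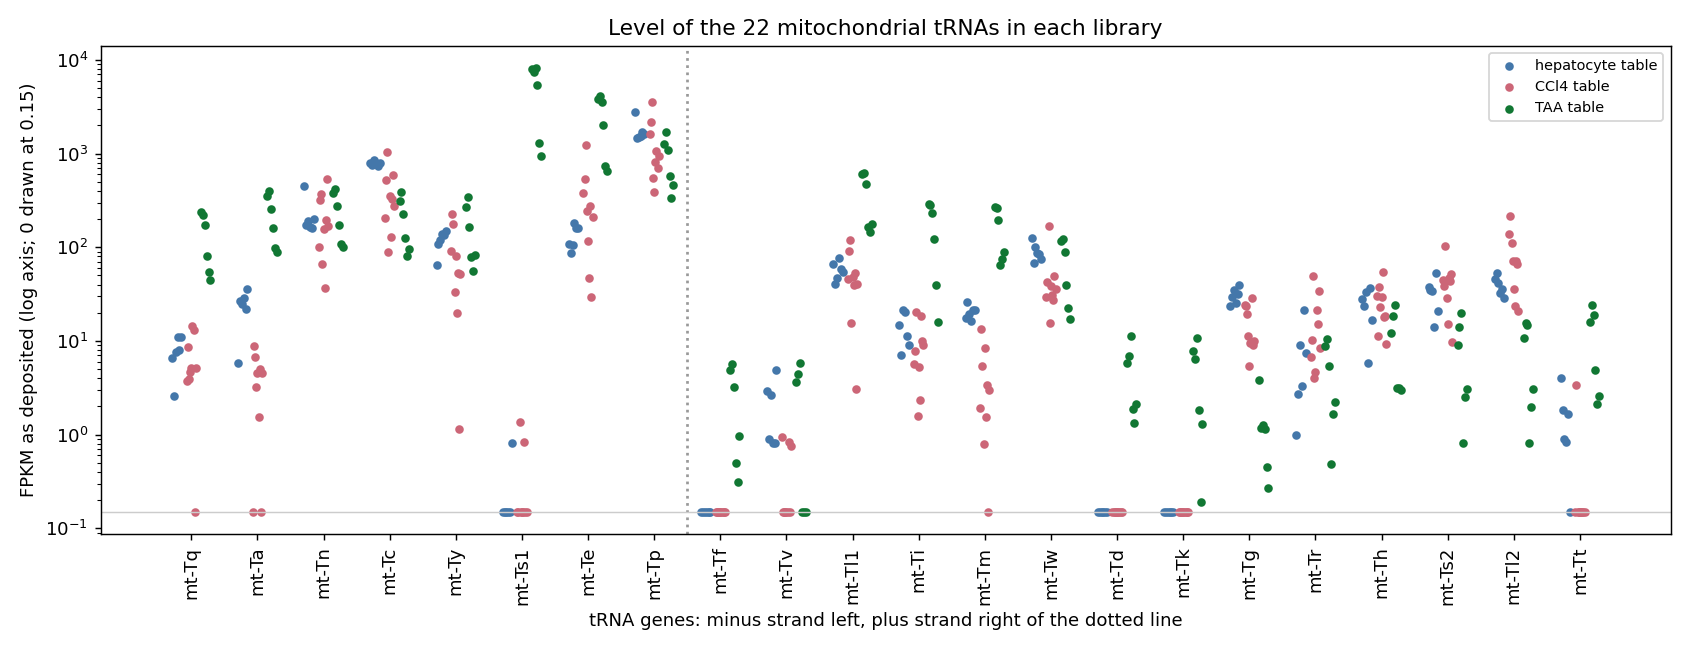
Level of each of the 22 tRNAs in deposited FPKM (vertical, log axis, 0 drawn at 0.15), 1 point per library, coloured by table; minus-strand genes stand left of the dotted line and plus-strand genes right of it. mt-Ts1 is at 953.9 to 8184 FPKM in the TAA libraries and at the base line in most of the others, and mt-Tf, mt-Td and mt-Tk are at 0 in the hepatocyte and CCl4 tables.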

How the data were processed

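RNA was sequenced from 21 mouse libraries in 7 groups of 3, taken from the sample labels. The submitters' processing notes name HISAT2 2.2.1, featureCounts 1.5.0-p3 and the build mm10. The authors deposited counts per gene with FPKM (fragments scaled by gene length and a factor per library) for the TAA table. For the hepatocyte and CCl4 tables they deposited FPKM alone, per the file headers. In the CCl4 table this factor was not library size alone. The value of 1 read (FPKM times gene length) was 65.7 in oil replicate 1, with 16684832 reads. It was 55.0 in wild-type CCl4 replicate 1, with 16659576 reads. It ran from 51.7 to 77.3 with labelled Sting knockout. The origin of this factor was not tested. Reads of the FPKM tables were recovered as FPKM times gene length over the value of 1 read; 100% of values came out whole within 0.05. How reads matching several places, and strand, were handled is something the sources used here do not give.

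Counts were tested with edgeR 4.0.16 (quasi-likelihood, TMM) and FPKM with limma 3.58.1 on log2(FPKM + 1) after a filter of a mean of 1 FPKM, over all genes with Benjamini-Hochberg adjustment at 0.05. All libraries of the CCl4 table entered a single fit. edgeR on the recovered reads was an alternative, as were DESeq2 1.42.0, other scalings, filters, pseudocounts (0.1) and leaving out each library. A share is the members' part of all gene reads. Sequences came from GENCODE M21 transcripts. R 4.3.3 and Python 3.11.15 were used. Depth bounds the precision of low genes, and floors of 3 counts cover counting error only.

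Deviations of same-numbered libraries correlated at 0.23, 0.32 and 0.52 between oil and CCl4. They correlated at 0.19, 0.18 and 0.12 between CCl4 wild type and labelled Sting knockout, and at 0.18, 0.22 and 0.085 between the hepatocyte groups. The labels give no pairing, so the main tests used none, and the replicate number as a block was an alternative. On simulated data, the fit found 93.9% of 2-fold changes between the hepatocyte groups, 5.63% for CCl4 against oil, 4.35% for labelled Sting knockout and 2.15% for the Nlrp3 deletion, and 100.0%, 61.3%, 75.9% and 52.1% of 4-fold changes, with 9757, 11321, 11315 and 17722 genes in the fits.

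Every mRNA and rRNA was described; tRNAs were named where they passed a table's filter or had at least 10 reads in every library. Of each nuclear list up to 3 called genes with the smallest p were named, and 3 nuclear copies by mean level; other names were chosen after their values were seen. The members and lists were chosen with earlier results of these data known.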

Additional observations from a re-analysis of the deposited data

How the results depend on the processing

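The numbers of genes called moved with the settings. Between CCl4 and oil 4 were called; this became 1 with no filter, 2 with equal sums off the mitochondrial chromosome, 0 with quantile normalization, 8 with edgeR on recovered reads, 2 among protein-coding genes alone and 1 to 10 with a library left out. With the Nlrp3 deletion 15 were called; this became 0 with RLE factors, 24 with TMM and library sizes off the mitochondrial chromosome, 29 with no filter, 36 with DESeq2, 27 with limma-voom, 23 without rRNA genes and pseudogenes, and 0 to 33 with a library left out. Other scalings chosen after seeing the data gave 30 (no TMM factors) and 32 (nuclear protein-coding total). For the deletion the log2 fold changes of the 13 mRNAs and both rRNAs stayed negative under all of these settings. Over all genes, 322 were called for the deletion, and 1 with RLE factors, 646 with factors off the mitochondrial chromosome, 1593 with no filter, 3640 with DESeq2, 644 with limma-voom, 637 without rRNA genes and pseudogenes, 2 with the block, 2604 with no TMM factors, 1710 against the nuclear total and 0 to 7555 with a library left out. Between CCl4 and oil 1766 were called, and 877 at 5 FPKM or more, 2790 with edgeR and 936 to 2472 with a library left out. With no filter, 2 genes were called for MCC950 and 2 for labelled Sting knockout, against 0. No member was called for MCC950 or labelled Sting knockout under any setting run.

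With the replicate number as a block, 6 members were called between CCl4 and oil and 0 for the Nlrp3 deletion, against 4 and 15 without it, and 0 for MCC950 and for labelled Sting knockout. Same-numbered TAA libraries did not deviate together (correlations from -0.015 to 0.056). In hepatocytes the correlations were 0.085 to 0.22, of similar size to those between CCl4 wild type and labelled Sting knockout (0.12 to 0.19). The labels pair none of these libraries, so the fits with a block are given as alternatives alone.

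Some directions turned. For labelled Sting knockout the mRNA median of 0.07 became -0.10 with equal sums and -0.26 with quantile normalization, and ran from -0.15 to 0.28 with a library left out. In that comparison quantile normalization gave -0.14 for mt-Cytb, -0.13 for mt-Nd1, -0.39 for mt-Nd2, -0.22 for mt-Nd4, -0.025 for mt-Nd3 and -0.26 for mt-Co3; equal sums gave -0.10 for mt-Nd2 and -0.12 for mt-Co3; edgeR gave -0.37 for mt-Co3. Quantile normalization gave 0.063 for mt-Rnr1 and 0.016 for mt-Rnr2 with MCC950, and 0.10 in place of -0.60 for mt-Rnr1 between CCl4 and oil. With summed FPKM the rRNA share differed by 0.000688 points with MCC950. Values with a library left out ran from -0.11 to 0.049 for mt-Rnr1, -0.13 to 0.066 for mt-Rnr2, -0.069 to 0.19 for mt-Co2 with MCC950; and -0.38 to 0.15 for mt-Co1, -0.084 to 0.33 for mt-Nd2, -0.78 to 0.33 for mt-Nd5, -0.089 to 0.87 for mt-Rnr2, -0.15 to 0.83 for mt-Co2, -0.41 to 0.31 for mt-Atp6, -0.64 to 0.85 for mt-Co3 with labelled Sting knockout. With a library left out, the share differences ran from -0.00752 to 0.00500 points for rRNA and -0.00380 to 0.00135 for tRNA with MCC950, from -0.0559 to 0.000293 for rRNA between CCl4 and oil, and from -0.699 to 0.727 for all, -0.716 to 0.704 for mRNA and -0.00950 to 0.0268 for rRNA with labelled Sting knockout. The cause of each was not tested. Few reads limit most tRNAs, and with groups of 3 no share can reach the threshold in the exact permutation test.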
